A study of Mus musculus with 36 samples.

Results

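Lyz1 and Lyz2 are the mouse lysozyme genes, and here their transcripts were followed through 36 libraries of bone marrow-derived macrophages (BMDMs). They are 2 of the 54532 genes in the count table and were taken by name, with all 36 columns kept. Both were chosen by their levels in KO against WT in these same libraries (lower Lyz2, higher Lyz1), so every KO and WT level below is a description with no test. The choice did not rest on treatment effects within a genotype, and these were tested. Earlier results of these data were known when it was made. WT cells came from female C57BL/6 mice aged 13 to 17 weeks that carried floxed Bmal1 (Bmal1 flox/flox) and no Cre, with 3 replicate numbers. KO cells came from LysM-Cre;Bmal1 flox/flox mice, also female and aged 13 to 17 weeks, with 6 replicate numbers. The study states that mice with Cre were matched in age and sex to littermates without it. The floxed Bmal1 alleles are thus common to both genotypes and Cre is not. Marrow was grown with MCSF for 7 days. Cells then received for 6 h DMSO as vehicle, 100 µM CCM with DMSO, 100 nM LPS with DMSO, or LPS and CCM together (LPS+CCM). CCM, the Core Circadian Modulator, is a small molecule that binds the PASB domain of BMAL1, and LPS is a component of the Gram-negative bacterial envelope. The study counts its groups in mice, but the labels do not tie a replicate number to a mouse, so p-values measure the spread between these libraries. Treatment comparisons share libraries: LPS and CCM were both set against the same vehicle libraries of a genotype.

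Lysozyme cuts the sugar backbone of peptidoglycan in bacterial walls, and the fragments it frees are read by intracellular sensors such as NOD2. Mice have a pair of neighbouring genes for it: Lyz2, the M lysozyme of macrophages and neutrophils, and Lyz1, the P lysozyme best known from Paneth cells of the small intestine. Lyz2 RNA is so abundant in myeloid cells that its locus is widely used to drive Cre, and in the LysM-Cre strain the recombinase was knocked into Lyz2 itself at the start of its coding sequence, so an allele with Cre does not make normal lysozyme M. A Cre at this locus acts in macrophages, monocytes and neutrophils alike. Whether the mice carried 1 or 2 copies of the Cre allele is not given in the sources used here, and reads from Cre were not analysed here.

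The genes lie side by side on mouse chromosome 10 (GRCm38, minus strand). Lyz2 (ENSMUSG00000069516) spans chr10:117277331-117282321 and Lyz1 (ENSMUSG00000069515) spans chr10:117287797-117292868, with 5475 bases between them. Each has 4 exons and a single transcript in GENCODE M21, and no other annotated gene overlaps either. The first 300 bases of their coding sequences, read from GENCODE M21, are shown because a read can be assigned to the right gene only where they differ. Capitals mark the differing bases, 20 of the 22 in the whole coding sequence of 447 bases.
Lyz2: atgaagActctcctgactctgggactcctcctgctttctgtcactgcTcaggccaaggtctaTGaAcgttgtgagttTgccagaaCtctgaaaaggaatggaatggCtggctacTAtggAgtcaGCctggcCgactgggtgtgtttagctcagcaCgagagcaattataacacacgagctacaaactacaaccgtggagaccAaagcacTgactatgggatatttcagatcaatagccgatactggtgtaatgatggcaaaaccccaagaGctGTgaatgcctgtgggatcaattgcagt
Lyz1: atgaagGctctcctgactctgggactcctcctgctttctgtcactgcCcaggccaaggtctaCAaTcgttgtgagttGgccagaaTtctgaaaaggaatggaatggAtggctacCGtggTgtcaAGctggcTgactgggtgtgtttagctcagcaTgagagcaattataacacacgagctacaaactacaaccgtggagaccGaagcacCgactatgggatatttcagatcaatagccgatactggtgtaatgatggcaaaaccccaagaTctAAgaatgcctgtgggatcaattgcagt
The coding sequences were 95.1% identical, and the longest stretch without a difference was 118 bases. The differences fell in 18 codons and changed 12 of the 148 amino acids, so the encoded precursors were 91.9% identical. Over the whole mRNAs, 15.4% of the 50-base windows of Lyz2 occurred unchanged in Lyz1, as did 1.97% of its 100-base windows and 0% of its 150-base windows. For Lyz1 these shares were 16.1%, 2.06% and 0%. The read length and the handling of reads that fit several places are not stated, so the division of read pairs between these genes is uncertain, most of all for the gene with few counts.

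Upstream of the transcripts the similarity was lower. Shown are the 100 bases from 149 to 50 bases before each RefSeq start (RefSeq, GRCm38.p6, minus strand), chr10:117282322-117282421 for Lyz2 and chr10:117292918-117293017 for Lyz1, printed because transcription of each gene starts just beyond them, with capitals at the differing bases.
Lyz2: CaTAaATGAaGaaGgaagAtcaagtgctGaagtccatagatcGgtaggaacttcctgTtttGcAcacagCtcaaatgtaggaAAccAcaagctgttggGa
Lyz1: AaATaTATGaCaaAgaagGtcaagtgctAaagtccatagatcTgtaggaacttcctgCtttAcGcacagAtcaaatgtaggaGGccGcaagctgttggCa
They were 80.0% identical, with 20 differences. The letters GGAA, the core that ETS family factors such as PU.1 bind, occurred on either strand 4 times for Lyz2 and 2 times for Lyz1, and at least once in 67.2% of 32851 RefSeq promoters in the same window. The match is a description only.

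The libraries held 13469262 to 28288923 counts on genes. Macrophage markers (9 of 9 detected, among them Adgre1 and Csf1r) summed to 6144 to 9125 CPM (counts scaled to library size, with TMM factors) in all 36 libraries. Ly6g, which defines neutrophils, reached at most 13 counts in a library, but the 9 neutrophil markers together summed to 456 to 1197 CPM. The 4 fibroblast markers summed to 301 to 1650 CPM. The Paneth cell defensins and their companions were near absent, with 4 of 5 markers at 0 in every library. Bmal1 itself (Arntl) had 7.52 to 12.9 CPM in WT and 2.02 to 10.8 CPM in KO, but counts over the whole gene cannot show the loss of the floxed part. Libraries of 2 KO replicate numbers stood apart. Those labelled KO replicate 2 lay near WT for Lyz1 and within or above the WT range for Lyz2. Their Arntl was 7.76 to 10.8 CPM, within the WT range of each treatment but LPS+CCM (9.33 CPM against 11.5 to 12.9), although with vehicle KO replicates 1, 4 and 5 (7.59, 7.98 and 7.62 CPM) also lay in the WT range of 7.52 to 9.98. The libraries of KO replicate 6 had the lowest Arntl (2.02 to 4.80 CPM). Results that rest on them are given with and without them.

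Lyz2 was among the most abundant transcripts of these cells. In WT it took 0.923 to 1.73% of all counts and ranked from 2 to 4 among genes by count, and in KO 0.541 to 1.61%, ranking from 3 to 11. With vehicle, the WT libraries had 14467, 12079 and 13274 CPM, and the 6 KO libraries had 7184 at the lowest, 8472 at the median and 13247 at the highest. Only the library labelled KO replicate 2 reached into the WT range. With CCM, WT had 13761, 15185 and 13418 CPM, and KO ran from 7695 over a median of 8450 to 14354. With LPS, WT had 11035, 10860 and 10457 CPM, and KO 5862, 6422 and 11052. With LPS+CCM, WT had 10996, 10881 and 11338 CPM, and KO 6080, 7071 and 14686. In each of the 4 treatments the KO group reached the WT levels through replicate 2 alone. Replicate 2 lay inside the WT range with vehicle and CCM and above it with LPS and LPS+CCM. Without it every KO library lay below every WT library. Since replicate 2 was set apart for these same levels, that separation is part of the choice. The share of all genes that separate in this way was not computed.

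The edgeR estimate of KO minus WT for Lyz2, on the log2 scale, was -0.50 with vehicle, and -0.60, -0.50 and -0.39 in the CCM, LPS and LPS+CCM groups. Without replicate 2 it was -0.63, -0.75, -0.63 and -0.61, which is 1.55-fold, 1.69-fold, 1.55-fold and 1.52-fold more Lyz2 in WT. Without replicates 2 and 6 it was -0.71, -0.79, -0.77 and -0.64. KO was lower in each treatment, and more so without replicate 2, as follows from setting that number apart for its high Lyz2. In bulk RNA, less Lyz2 per cell and fewer cells that carry it cannot be told apart. The KO genotype joins Cre at the Lyz2 locus with the deletion of Bmal1, and WT has neither. Their parts in the difference of either lysozyme cannot be told apart here. For reference, edgeR called 0% of genes between KO and WT at an adjusted p of 0.05 in each treatment (0 of 14385, 14235, 13794 and 13938 tested), and 118, 126, 105 and 187 genes had an unadjusted p under 0.05. Nothing is read from that background for the lysozymes, since the same contrast chose them.

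**Figure D1:**
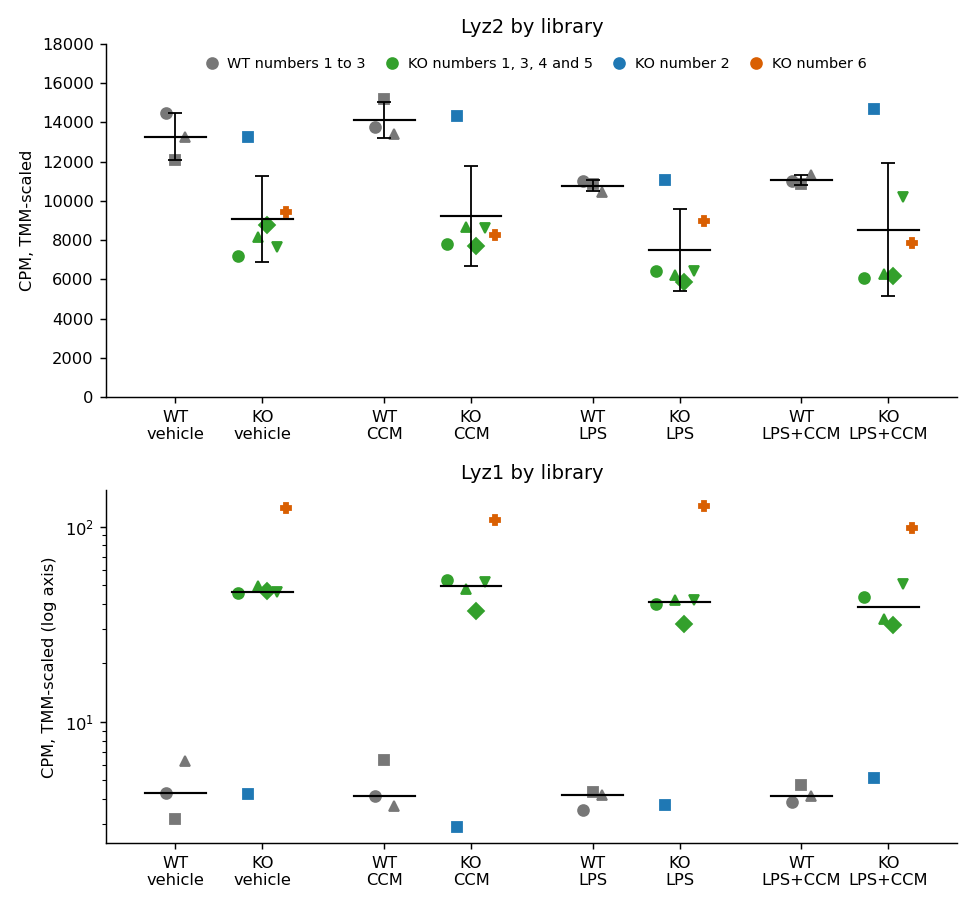
CPM (TMM-scaled) of Lyz2 on a linear axis and Lyz1 on a log axis in each of the 36 libraries, by genotype and treatment. Symbols stand for replicate numbers, bars in the upper panel for mean and SD, and bars in the lower panel for the median. KO replicate 2 (blue) lies within or above the WT range of its treatment for Lyz2 and near WT for Lyz1. KO replicate 6 (orange) has the highest Lyz1, 98.0 to 127 CPM.

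Lyz1 went the other way and from a far lower level. WT libraries had 60 to 206 Lyz1 counts each, so counting error alone is appreciable there. With vehicle, WT had 4.33, 3.15 and 6.29 CPM, and KO 4.24 at the lowest, 46.3 at the median and 124 at the highest. With CCM, WT had 4.18, 6.38 and 3.69 CPM, and KO 2.87, 49.8 and 108. Again the lowest KO library was replicate 2, which lay inside or below the WT range. With LPS, WT had 3.54, 4.34 and 4.19 CPM, and KO 3.74, 41.0 and 127. With LPS+CCM, WT had 3.85, 4.71 and 4.17 CPM, and KO 5.14, 38.5 and 98.0. The KO and WT ranges overlapped in each treatment but LPS+CCM, where replicate 2 lay just above WT. Without replicate 2 every KO library was above every WT library. For Lyz1 too, this separation is part of the choice of replicate 2.

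For Lyz1 the edgeR estimate of KO minus WT was 3.58 on the log2 scale with vehicle, and 3.44, 3.61 and 3.36 in the other groups in that order. Leaving out replicate 2 gave 3.83, 3.69, 3.85 and 3.59. Leaving out replicates 2 and 6 gave 3.36, 3.32, 3.28 and 3.21, or 10.2-fold, 9.99-fold, 9.69-fold and 9.23-fold more Lyz1 in KO. The remaining 4 replicate numbers gave estimates somewhat below those of all 6. In count rank, Lyz1 stood between 9379 and 10596 in WT and between 3317 and 5263 in KO replicates 1, 3, 4 and 5. In replicate 6 it stood between 1343 and 2219.

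Per kilobase of transcript, which allows levels of the genes to be compared, Lyz2 had 7946 to 11539 and Lyz1 2.49 to 5.06 CPM per kb in WT. In KO replicates 1, 3, 4 and 5 the ranges were 4455 to 7733 for Lyz2 and 24.6 to 42.2 for Lyz1. In replicate 6 they were 5989 to 7189 and 77.6 to 101. Lyz2 remained the far more abundant gene in every library. In KO, the increase of Lyz1 in CPM was small beside the decrease of Lyz2, since without replicates 2 and 6 vehicle means were 47.0 ± 1.87 against 4.59 ± 1.58 CPM for Lyz1 (SD, n = 4 and 3) and 7942 ± 687 against 13274 ± 1194 CPM for Lyz2.

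The number of Lyz1 counts per 1000 Lyz2 counts needs no library scaling. It was 0.261 to 0.474 in the 12 WT libraries and 0.200 to 0.350 in the 4 libraries labelled KO replicate 2. In KO replicates 1, 3, 4 and 5 it was 4.78 to 7.15 in 16 libraries, and in replicate 6 it was 12.4 to 14.1 in 4 libraries. These 3 ranges of KO libraries do not touch. By replicate number, the mean of the 4 treatments was 6.65, 0.302, 5.91, 5.13, 5.89 and 13.2 for KO replicates 1 to 6, and 0.319, 0.379 and 0.379 for WT replicates 1 to 3. Within each KO number the ratio varied less over the 4 treatments than between these groups of numbers. The groups were formed after the levels of both genes had been seen, so their separation on the ratio is part of that choice. The share of all gene pairs that separate in this way was not computed.

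**Figure D2:**
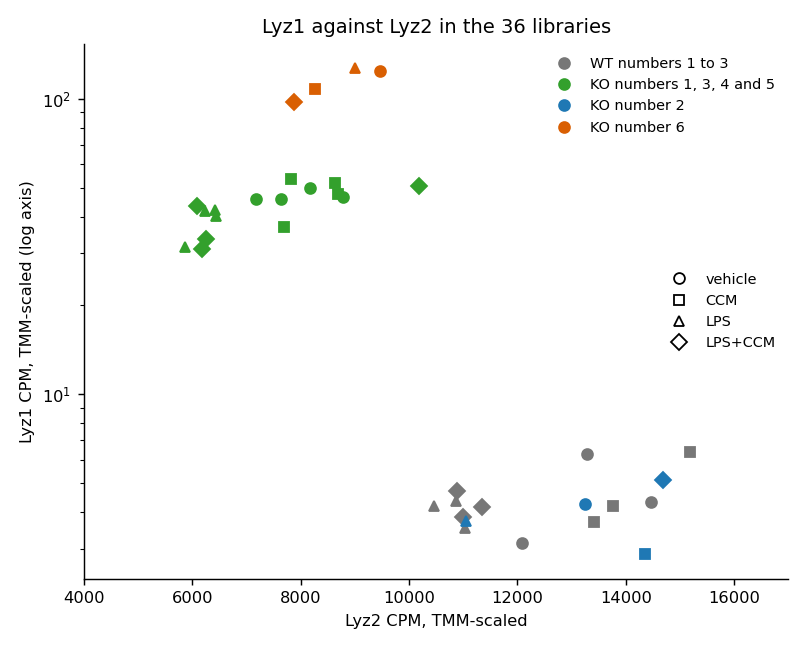
Lyz1 (log axis) against Lyz2 (linear axis), both in TMM-scaled CPM, with 1 point for each of the 36 libraries. Colours mark WT and KO replicate numbers, and shapes the treatment. WT and KO replicate 2 share the lower right (Lyz2 from 10457 CPM, Lyz1 up to 6.38 CPM), and the other KO libraries lie at the upper left in separate bands for replicates 1, 3, 4 and 5 and for replicate 6.

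Arntl was set beside these values as the gene that Cre was meant to delete. Mean Arntl over the 4 treatments was 6.92, 9.23, 6.81, 7.67, 7.04 and 3.38 CPM for KO replicates 1 to 6 and 9.20 to 10.7 CPM for the WT replicates. Replicate 2 had the most Arntl and the lowest Lyz1 to Lyz2 ratio of the KO numbers, and replicate 6 the least Arntl and the highest ratio. These are the 2 numbers set apart above. In replicates 1, 3, 4 and 5, which lay close together in Arntl, the mean ratio was 6.65, 5.91, 5.13 and 5.89. Because the 6 numbers fall into separate groups on the ratio and on Lyz2, no correlation is given. A relation between Arntl and the lysozymes was not tested.

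The lysozymes were set beside their neighbours to show whether the difference extended along the chromosome. Within 500 kb, 31 other genes are in the table, and 10 of them were expressed enough to be fitted with vehicle. By edgeR 0 of these 10 were called between KO and WT in any treatment, and 0 of the 11 fitted with CCM, which is also the share over all genes (0%) and so says nothing particular about the neighbours. In KO replicates 1, 3, 4 and 5, the deviation from the WT mean over the 4 treatments had a median size of 0.0600 on the log2 scale over the 10 genes. Its extreme of 0.570 belonged to Cpm, a carboxypeptidase gene with under 1 CPM. For Lyz2 the same measure was -0.84, -0.75, -0.80 and -0.59, and for Lyz1 3.37, 3.28, 3.03 and 3.43. Since the lysozymes were chosen by this contrast and the neighbours were not, these values are set side by side only.

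The libraries of replicate 6 stood apart beyond the region around the lysozymes. Their TMM factors were the lowest of the KO libraries in each treatment (0.958, 0.937, 0.788 and 0.774 with vehicle, CCM, LPS and LPS+CCM). Without replicate 6, edgeR called 9612 genes for LPS in KO, against 6433 with it. Replicate 6 was also different from the other KO replicates at several neighbours. Frs2, an adaptor of growth factor receptors, had 9.30 CPM there against 28.1 to 33.4 in KO replicates 1, 3, 4 and 5 and 31.9 to 32.9 in WT (means over treatments). Mdm2, which targets p53 for degradation, had 109.7 CPM against 172 to 217 and 191 to 216. Yeats4, a chromatin reader subunit, had 64.6 CPM against 37.0 to 46.8 and 37.1 to 37.8. For Lyz1 the corresponding values were 114 CPM in replicate 6, 36.5 to 47.6 in the other KO replicates and 3.98 to 4.65 in WT. The markers moved there too: the 9 neutrophil markers summed to 1112 to 1142 CPM in replicate 6, 463 to 1197 in KO replicates 1, 3, 4 and 5 and 462 to 768 in WT. The 9 macrophage markers summed to 7635 to 9125, 6144 to 7962 and 6427 to 7538 CPM, in the same order. This sum can hide members that go opposite ways. With vehicle, Adgre1 ran from 333 to 885 CPM over the KO libraries, against 764 to 786 in WT. Mertk ran from 30.9 to 171 against 115 to 144, and C1qb from 1136 to 2901 against 1168 to 1452. Which library holds each extreme is not given here. With CCM, LPS and LPS+CCM the neutrophil sum of replicate 6 was the highest of the KO libraries, and with vehicle another KO library reached 1197 CPM. The 5 granulocyte-monocyte progenitor markers summed to a median of 71.3 CPM in replicate 6, 25.7 in KO replicates 1, 3, 4 and 5 and 19.4 in WT. The 4 erythroid markers summed to a median of 8.25, 2.58 and 2.27 CPM. Their part in the Lyz1 level of replicate 6 was not tested.

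**Figure D3:**
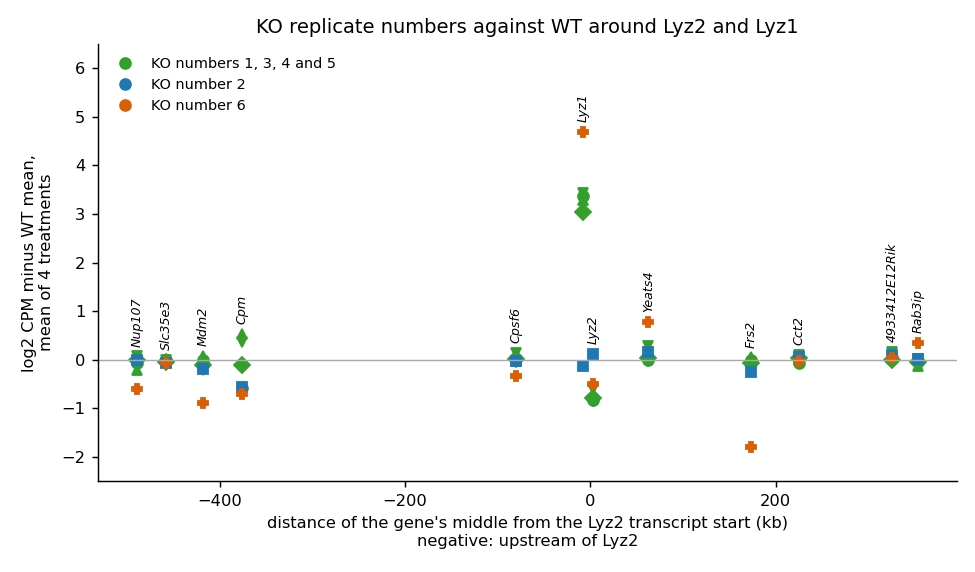
Mean deviation of each KO replicate number from WT (log2 CPM, mean of the 4 treatments) for Lyz1, Lyz2 and the 10 fitted neighbours, against the distance of each gene's middle from the Lyz2 start in kb. Lyz1 rises to between 3.03 and 4.69 in each number but replicate 2, at -0.14, and Lyz2 lies between -0.84 and -0.50 in the same numbers. Most neighbours lie near 0, and replicate 6 departs at Frs2, with -1.79, and at Mdm2 and Yeats4.

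LPS lowered Lyz2 in WT macrophages. The vehicle libraries at 14467, 12079 and 13274 CPM lay above the LPS libraries at 11035, 10860 and 10457 CPM, with no overlap. The log2 fold change was -0.27 (SE 0.0725, adjusted p = 0.00831, edgeR quasi-likelihood test with Benjamini-Hochberg adjustment over all genes), and Lyz2 was lower in 3 of 3 replicate numbers. LPS moved most of the transcriptome, with 63.0% of 14501 genes called in WT, so a call by itself does not set Lyz2 apart. With CCM present, Lyz2 went from 13761, 15185 and 13418 to 10996, 10881 and 11338 CPM, again without overlap, a log2 fold change of -0.34 (SE 0.0583, edgeR adjusted p = 0.000417) with 61.5% of genes called. Leaving out 1 library left both calls in place, with adjusted p up to 0.0359 and 0.0023. When all 36 libraries shared 1 estimate of the spread, both were lost (adjusted p = 0.499 and 0.407). Scaled by total counts alone, all genes tested shifted by a median of -0.47 with LPS in WT and -0.44 in KO, and Lyz2 by -0.68 and -0.66.

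Markers of other cell types moved with LPS as well. Of 9 neutrophil markers, among them the granule protein genes Ltf and Ngp, 8 were fitted in WT, and 6 fell and 2 rose, and their sum went from 699 to 768 CPM with vehicle to 542 to 587 CPM with LPS. All 5 markers of granulocyte-monocyte progenitors fell, from sums of 43.9 to 51.7 CPM to 11.8 to 16.2 CPM. Of the 9 macrophage markers 6 fell and 2 rose, with sums of 6526 to 7538 and 7206 to 7440 CPM. In KO 4 of 8 fitted neutrophil markers fell and 1 rose, and 3 of 5 progenitor markers fell. These counts stand beside 63.0% of all genes called in WT and 47.1% in KO. Their part in the fall of Lyz2 was not tested.

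In KO, Lyz2 also fell with LPS once the replicate numbers were compared with themselves. Vehicle libraries ran from 7184 to 13247 CPM and LPS libraries from 5862 to 11052, and these ranges overlapped widely. Within replicate numbers 1 to 6 the log2 change was -0.16, -0.26, -0.39, -0.58, -0.25 and -0.07, lower in 6 of 6. The fit without a block gave -0.27 (SE 0.205, edgeR adjusted p = 0.315), with 47.1% of genes called. A block for the replicate number gave -0.28 (SE 0.0595, edgeR adjusted p = 0.000794), with 9774 genes called. Same-numbered libraries deviated together in this comparison. Without replicates 2 and 6 the unblocked fit gave -0.31 (SE 0.0756, edgeR adjusted p = 0.00329). With CCM present, the 6 changes from CCM to LPS+CCM ranged from -0.47 to 0.24, lower in 4 of 6, and the estimate was -0.11 (SE 0.247, edgeR adjusted p = 0.782, with 38.2% of genes called).

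For Lyz1, a response to LPS was called in KO only with the replicate block or without replicates 2 and 6. It was not called in WT, where the estimate was of similar size. A call in KO alone is not a test of a genotype difference. In WT, vehicle libraries at 4.33, 3.15 and 6.29 CPM and LPS libraries at 3.54, 4.34 and 4.19 CPM overlapped, and the log2 fold change was -0.17 (SE 0.248, edgeR adjusted p = 0.58). With CCM present it was -0.15 (SE 0.222, edgeR adjusted p = 0.584). In KO the changes within replicate numbers were -0.19, -0.18, -0.25, -0.56, -0.13 and 0.03, lower in 5 of 6. The estimate was -0.12 (SE 0.72, edgeR adjusted p = 0.913) without a block and -0.20 (SE 0.0706, edgeR adjusted p = 0.0201) with it. Without replicates 2 and 6 it was -0.24 (SE 0.0892, edgeR adjusted p = 0.0348). With CCM present, Lyz1 in KO changed by -0.21 (SE 0.676, edgeR adjusted p = 0.852). The ratio of Lyz1 to Lyz2 in KO moved by -0.03 to 0.14 on the log2 scale between vehicle and LPS. This span is narrow beside the distances between replicate numbers.

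**Figure D4:**
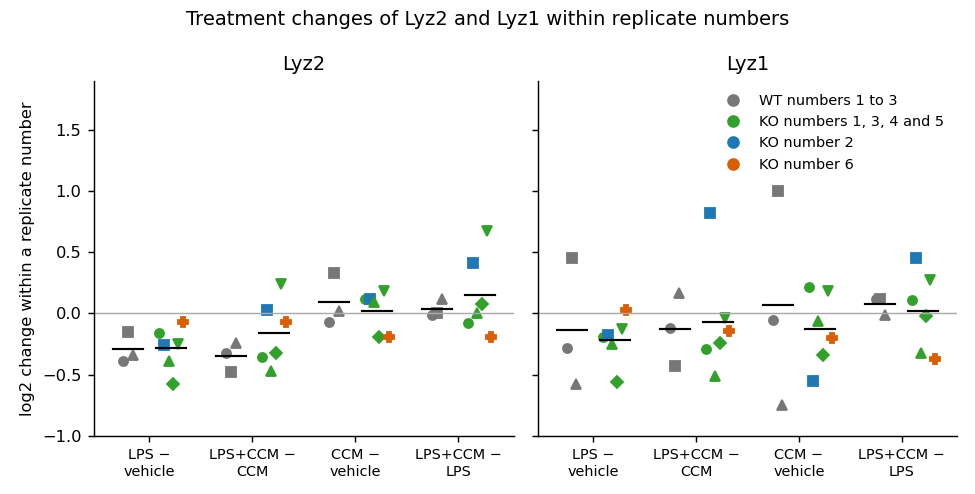
Log2 change of Lyz2 and Lyz1 (TMM-scaled CPM) between treatments within each replicate number, with bars at the mean of the 3 WT or 6 KO numbers. LPS against vehicle lowered Lyz2 in each of the 3 WT and 6 KO numbers (-0.58 to -0.07), and the changes with CCM lie on both sides of 0.

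No effect of CCM on either lysozyme was detected. In unstimulated WT, Lyz2 had 14467, 12079 and 13274 CPM with vehicle and 13761, 15185 and 13418 with CCM, which overlap, a log2 change of 0.10 (SE 0.0696, edgeR adjusted p = 0.672), with 0.0570% of genes called. Under LPS the WT values of 11035, 10860 and 10457 and of 10996, 10881 and 11338 CPM also overlapped, a change of 0.05 (SE 0.0419, edgeR adjusted p = 0.559), with 11.9% of genes called (1621, and 3220 with the replicate block, under which the adjusted p of Lyz2 was 0.204). For Lyz1 in WT the changes were 0.05 (SE 0.281) and 0.08 (SE 0.17), with edgeR adjusted p of 0.969 and 0.824. The errors of Lyz1, with few counts in WT, were wider than those of Lyz2.

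In KO, the CCM estimates come from fits without a block, although same-numbered libraries deviated together for CCM with vehicle. CCM changed Lyz2 by 0.02 (SE 0.186, edgeR adjusted p = 1) with vehicle and by 0.15 (SE 0.245, edgeR adjusted p = 0.887) with LPS. Lyz1 changed by -0.07 (SE 0.721, edgeR adjusted p = 1) and -0.17 (SE 0.672, edgeR adjusted p = 0.948). Without a block, edgeR called 0% of 13799 genes for CCM in unstimulated KO, where 333 had an unadjusted p under 0.05. DESeq2 called 24 there, and edgeR with the replicate block 429. For CCM under LPS, edgeR without a block called 0.112% (15 genes). Without replicate 6 the edgeR counts without a block were 141 and 170. The Lyz2 changes under LPS within KO replicate numbers ran from -0.19 to 0.67, the highest in replicate 5, followed by replicate 2. No fit with the replicate block called either gene for CCM.

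Whether treatments acted differently together, or differently in the genotypes, was tested on the interaction itself. The LPS by CCM interaction of Lyz2 was -0.07 (SE 0.0872, edgeR adjusted p = 0.797) in WT, where 2.09% of genes were called, and 0.16 (SE 0.326, edgeR adjusted p = 1) in KO, where 0.00685% were called. For Lyz1 it was 0.02 (SE 0.35) in WT and -0.08 (SE 1.04) in KO, with edgeR adjusted p of 0.992 and 1. The LPS effect on Lyz2 differed between KO and WT by 0.02 (SE 0.3) without and by 0.25 (SE 0.367) with CCM, and the CCM effect by -0.09 (SE 0.282) without and by 0.13 (SE 0.364) with LPS. For Lyz1 these 4 differences were 0.06 (SE 1.13), -0.04 (SE 1.06), -0.13 (SE 1.13) and -0.23 (SE 1.07). The edgeR adjusted p was 1 for each of these 8. Both edgeR and DESeq2 called 0% of genes in the 4 genotype interactions, with 112, 98, 85 and 72 at an unadjusted p under 0.05 in edgeR. These genotype fits carried no block for the replicate number, so their errors include the distances between numbers. In such fits a genotype difference in the Lyz1 response would have to be large to be seen. Within replicate numbers, the LPS change of Lyz1 averaged -0.21 in KO (SD 0.19, n = 6) and -0.13 in WT (SD 0.53, n = 3). A difference between these within-number changes was not tested.

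Other members of the lysozyme family were nearly silent. Of 8 relatives (Lyzl1, Lyzl4, Lyzl6, Spaca3, Spaca5, Lalba, Lyg1 and Lyg2), Lyzl4 alone was expressed enough to be fitted, at 0.365 to 2.23 CPM in WT and 0.115 to 5.99 CPM in KO. It fell with LPS in WT, from 2.13 to 2.23 CPM with vehicle to 0.483 to 1.04 CPM (log2 fold change -1.58, SE 0.315, edgeR adjusted p = 0.00145). In KO its change was -1.49 (SE 0.556, edgeR adjusted p = 0.0422). Lyzl1, Lyzl6, Spaca3, Lyg1 and Lyg2 had 0 counts in all 36 libraries. Spaca5 and Lalba had at most 2 counts in a library.

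Genes of peptidoglycan sensing were read in the same fits. Of 16 such genes 12 were fitted in WT, and 7 rose and 3 fell (median log2 fold change 2.11, against -0.05 over all genes tested). Nod2, the sensor of muramyl dipeptide, rose from 3.10 ± 0.434 to 56.9 ± 7.19 CPM in WT (SD, n = 3; log2 fold change 4.21, SE 0.128, edgeR adjusted p = 1.42e-09). Nod1, which senses a related fragment, rose by 2.98 (SE 0.0699), and Cd14, a co-receptor for LPS, by 2.86 (SE 0.0922). Slc46a3, a lysosomal transporter, fell by 3.84 (SE 0.0785), and Nagk, a kinase of amino sugars, fell by 0.72 (SE 0.0769). Most of the pathway's fitted genes thus passed the test, as did 63.0% of all genes. In KO the counts were again 7 risen and 3 fallen of 12 (median 1.94), beside 47.1% of all genes called. The log2 change of Lyz2, -0.27, was smaller in size than that of each sensor named here.

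Of 18 antibacterial effectors, 16 were fitted, and in WT 11 rose and 3 fell with LPS (median 0.51), where 63.0% of all genes were called. Nos2, the inducible nitric oxide synthase, reached 349 to 402 CPM with LPS from at most 0.0759 CPM with vehicle in WT. Lcn2, which binds bacterial siderophores, rose from 51.2 ± 7.30 to 639 ± 28.5 CPM (log2 fold change 3.67, SE 0.0932, edgeR adjusted p = 4.07e-10). The granule proteins Ltf and Ngp and the calgranulin S100a9 fell, with log2 changes of -1.87, -0.31 and -0.24. Camp and S100a8, of the same list, had higher means with LPS than with vehicle in WT. Camp ranged from 9.67 to 11.7 CPM with vehicle and from 16.8 to 21.6 CPM with LPS. S100a8 ranged from 138 to 166 CPM and from 159 to 187 CPM in the same order, which overlap. In KO 8 rose and 1 fell (median 0.44), where 47.1% of all genes were called. The LPS change of Lyz2, -0.27, lay between those of Ngp and S100a9. Among 11 myeloid transcription factors 4 rose and 3 fell in WT with LPS (median -0.13), and these 7 of 11 are near the share over all genes. Spi1, which encodes PU.1, rose by 1.17 (SE 0.0775), and Cebpb by 1.74 (SE 0.0875), while Cebpa fell by 2.91 (SE 0.0884). In KO 4 rose and 3 fell.

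The genes most like each lysozyme over the 36 libraries were also sought, among 11179 genes with a mean log2 CPM of at least 1. These correlations are descriptions, since the libraries share replicate numbers, treatments and depth. Lyz1 and Lyz2 themselves had a Pearson r of -0.76 over the 36 libraries and of -0.64 after subtracting the 8 group means. Nearest to Lyz2 was Nr1d2 (r = 0.70), which encodes the clock repressor REV-ERBβ, followed by Oip5 (0.60), Crem (0.58), Tmem181a (0.57) and Armc10 (0.57). Nr1d2 had 17.2 to 53.1 CPM in WT, 14.8 to 53.4 in KO replicate 2, 8.72 to 23.3 in KO replicates 1, 3, 4 and 5 and 5.28 to 8.29 in replicate 6. Since it was picked for its likeness to Lyz2 in these libraries, this order is part of the choice. After subtracting group means, Ccdc17 (0.71), Asf1a (0.69), 1110004F10Rik (0.67), Akr1b8 (0.66) and Cd9 (0.66) came first.

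Nearest to Lyz1 were Cfp (r = 0.70), which encodes the complement factor properdin, S100a9 (0.69), Pglyrp1 (0.67), which encodes a secreted peptidoglycan-binding protein, Lsp1 (0.65) and Apoe (0.63). Cfp had 319 to 377 CPM in KO replicate 6, 141 to 268 in KO replicates 1, 3, 4 and 5, 117 to 180.3 in replicate 2 and 131 to 174 in WT. Apoe, the apolipoprotein that macrophages secrete, had 39656 to 64337, 14442 to 27165, 13360 to 20240 and 12812 to 21276 CPM in the same order. Both were picked for their likeness to Lyz1, so their high level in replicate 6 is part of the choice. In KO replicates 1, 3, 4 and 5 their ranges overlapped those of WT. After subtracting group means, Fcna (0.76), Gpr162 (0.76), Fcrls (0.75), Ear2 (0.73) and the pseudogene I830127L07Rik (0.73) were nearest.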

How the data were processed

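RNA-seq of BMDMs was read from the deposited table of counts. Per the labels and the submitters' processing notes, the authors purified poly(A) RNA, trimmed reads with fastp, aligned them to mm10 with HISAT2 2.0.5 and counted them per gene with featureCounts 1.5.0-p3. The strand setting and the treatment of multiply mapped reads are not given in the sources used here. The gene length in the same table, deposited by the authors, was used for levels per kilobase. The number of count columns not used was 0 of 36.

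Every contrast had a fit of its own, with only the groups it compares, in edgeR 4.0.16 in R 4.3.3 (filterByExpr, TMM, estimateDisp, glmQLFit, glmQLFTest, two-sided, Benjamini-Hochberg over all genes fitted, adjusted p at most 0.05). CPM use TMM factors over the 36 libraries, and log2 CPM a prior count of 2. Within-number changes use these log2 CPM. Alternatives were DESeq2 1.42.0, RLE factors, total counts alone, no filter beyond 1 count, all 36 libraries in 1 fit, the replicate block and leaving out libraries. Leaving out KO replicates 2 and 6 together, and the block without replicate 2, were chosen after seeing the data. Each replicate number was left out in turn as planned, but singling out replicate 2 came after seeing the data. The code was tested on simulated data.

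Whether same-numbered libraries deviate together was checked by correlating what remained after group means were subtracted. It was over 0.1 for each pair for LPS in KO (0.298 to 0.83), CCM in KO (0.337 to 0.844) and CCM under LPS in WT (0.151 to 0.36). It was not so in the other comparisons. The main fits carried no block, also in these comparisons, and the replicate block was an alternative fit. The use of the block as a pairing rests on this check and not on the labels. Libraries of 1 group differed by more than counting noise (chi-square per degree of freedom at least 4.34 over 72 pairs).

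Of the 54532 genes counted, 54409 are in GENCODE M21 (GRCm38, the same build as mm10), 53499 of them with identical coordinates. Coding sequences came from GENCODE and promoters from RefSeq; both lysozymes matched by symbol. Correlations with Arntl over the KO replicate numbers had been planned and are not given, because the numbers form separate groups. Named genes are the lysozymes, Arntl, neighbours within 500 kb, members of the lists and the 5 genes most like each lysozyme. The lysozymes and the lists were chosen with earlier results of these data known. Set tests were not run.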

Additional observations from a re-analysis of the deposited data

Results flagged for a closer look

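Of the 12 sets of 6 KO libraries examined (Lyz2 CPM, Lyz1 CPM and their ratio in 4 treatments), 2 held a library whose gap to its nearest neighbour, relative to the range of the set, exceeded Dixon's 95% critical value for 6 samples. With CCM, Lyz2 in the library labelled KO replicate 2 was 14354 CPM, and the next highest KO library had 8682, a gap of 0.852 of the range. With LPS, Lyz1 in KO replicate 6 was 127 CPM, and the next highest had 42.0, a gap of 0.690 of the range. Chance exceeds this limit in about 1 of 20 sets that were not selected, and the sets share libraries. Here the genes were chosen by these same KO levels, and replicate 2 was set apart on them. The flags are thus a description with no test.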

How the results depend on the processing

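Of 204 alternative values for the lysozymes other than those with 1 library or replicate number left out, 184 were unchanged. For treatment effects and interactions, unchanged means the same direction and the same side of the threshold. KO minus WT was not tested, and there it means the same sign and a shift below the pooled SD of log2 CPM. Of 300 values with 1 left out, 273 were unchanged and 27 were not. These counts include KO minus WT, the contrast that chose the genes. KO minus WT kept its sign under total counts alone and without any 1 library, with ranges over left-out libraries of 2.93 to 3.89 for Lyz1 and -0.75 to -0.29 for Lyz2 over the 4 treatments. With all 36 libraries in 1 fit, the fall of Lyz2 with LPS in WT was -0.28 without and -0.35 with CCM and was no longer called. In KO the LPS response of Lyz2 became a call with total counts alone (-0.66), with the replicate block (-0.28), without replicates 2 and 6 (-0.31) and with the replicate block without replicate 2 (-0.28), and that of Lyz1 with the replicate block (-0.20), without replicates 2 and 6 (-0.24) and with the block without replicate 2 (-0.20). The block changed no other call of a lysozyme. The cause of these changes was not tested.

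Signs turned only in values that were not called. The LPS by CCM interaction in WT was 0.00 for Lyz1 with RLE factors and with DESeq2, and 0.03 for Lyz2 with total counts alone. In KO that of Lyz1 was 0.08 with the replicate block and 0.02 without replicates 2 and 6. CCM changed Lyz2 in KO by 0.00 with the replicate block without replicate 2, and Lyz1 under LPS by 0.02 without replicates 2 and 6. The genotype difference in the LPS response was -0.01 for Lyz2 with RLE factors and with DESeq2, and -0.08 for Lyz2 and -0.09 for Lyz1 without replicates 2 and 6. Leaving out 1 library gave, for Lyz1 in WT, -0.35 to 0.15 for LPS, -0.30 to 0.11 for LPS with CCM, -0.21 to 0.35 for CCM, 0.00 to 0.14 for CCM under LPS and -0.28 to 0.28 for their interaction. In KO, where a replicate number was left out, it gave -0.01 to 0.05 for CCM on Lyz2, and for Lyz1 -0.25 to 0.03 for CCM under LPS and -0.13 to 0.04 for the interaction. The genotype differences ranged from -0.23 to 0.25 (Lyz1) and -0.05 to 0.07 (Lyz2) for LPS, and for Lyz1 from -0.30 to 0.12 for LPS with CCM and from -0.44 to 0.12 for CCM.

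Counts of called genes moved by over 1.5 times in several settings. With all 36 libraries in 1 fit, they were 5644 and 4883 for LPS without and with CCM in WT, 0 and 17 for CCM in WT without and with LPS, and 14 and 285 for the same effects in KO. The interaction then had 0 called genes in WT and 8 in KO. With the replicate block CCM had 255 and 3220 called genes in WT, without and with LPS, and KO had 429 and 777. The block gave 548 (WT) and 81 (KO) for the interaction and 9774 for LPS in KO. DESeq2 called 247 genes for CCM in WT. In KO it called 24 without and 180 with LPS. Its counts for the interaction were 696 (WT) and 12 (KO). Without a filter beyond 1 count, WT had 377 for CCM and 721 for the interaction. The interaction in KO then had 0, as with total counts alone. Without replicates 2 and 6, 7 and 9 genes were called for CCM in KO and 0 for the interaction, and with the block without replicate 2, 112, 236 and 5. Leaving out 1 library or number moved CCM in WT to 0 without any of the CCM libraries, and to 2, 1 and 16 without vehicle replicates 1, 2 and 3. CCM under LPS in WT went to 958 and 893 without replicate 2 of LPS and of LPS+CCM. The WT interaction went to 200 without vehicle replicate 2, to 203, 204 and 181 without CCM replicates 1, 2 and 3, to 186 and 158 without LPS replicates 1 and 2, and to 152 and 149 without LPS+CCM replicates 2 and 3. In KO, CCM had 141 without replicate 6, CCM under LPS 0, 0, 7, 2, 4 and 170 without replicates 1 to 6, and the interaction 10 without replicate 6 and 0 without any other.

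Depth limits Lyz1 in WT, with 60 to 206 counts in a library. The wide errors of the KO fits without a block include the distances between replicate numbers.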
